A study of Mus musculus with 4 samples.

Results

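The cells described here are the Itgae-marked cluster of type III gamma delta T (γδ T) cells, named gdT_TypeIII_ITGAE by the authors, in a single-cell RNA sequencing data set of lymphocytes sorted as ST2+ cells from mouse liver and lung. The members are the marker genes that the deposited cell type table lists for this cluster. There were 197 of them, out of 1679 genes listed for any of 21 named cell types. The other type III γδ T cell cluster, gdT_TypeIII_CD163l1, had 191 listed genes and serves as the main comparison.

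Wild-type BALB/c mice were injected intraperitoneally on each of 5 days with PBS or with a 0.5 µg dose of rIL-33, the recombinant form of a cytokine that activates cells bearing its receptor ST2. There were 4 groups with 1 library each, the PBS and rIL-33 groups of liver and those of lung. Cells were sorted as negative for a lineage mixture that included CD3e and TCRβ, and positive for CD127, Thy1 and ST2, and the labels call them ILC2s. ILC2s, or group 2 innate lymphoid cells, are lymphocytes that lack antigen receptors and release type 2 cytokines. Tissue from several mice was pooled for each group, and 10000 to 20000 cells were loaded per library.

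The values are the authors' shares of cells with a value above 0 for a gene, in the cluster and in all other sorted cells, over the 4 libraries pooled. No value was given per library, so neither rIL-33 with PBS nor liver with lung was compared. No value has a replicate, and the tables used here hold neither cell numbers nor sequencing depth, so no interval or test of a share was made. Which matrix the shares came from was not stated, and they were high for single-cell counts. *Il17a*, a gene of few cell types, was above 0 in 41.7% of all other cells, and each of the 197 member genes was above 0 in more than 20% of all other cells, with a lowest share of 21.9%. Of the 28 member genes with a value for ILC2s in the cell type table and in a separate table of ILC2 subclusters, 28 had the higher share in the former, by a median of 13.3 percentage points. For *Fos* the shares of ILC2s were 94.5% and 80.1% in these tables. The cell type table may therefore hold integrated or scaled values, and its differences are given as differences in share, not in expression.

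γδ T cells are T cells whose receptor is made of a γ and a δ chain. Type III γδ T cells are the ones that make IL-17. They settle in barrier tissues such as skin, lung and liver and respond quickly to cytokines without a need for priming by antigen. *Itgae* encodes CD103, the αE integrin chain, which pairs with β7 to bind E-cadherin on epithelial cells and is carried by many tissue-resident lymphocytes. *Fos*, *Fosb* and *Fosl2* encode subunits of AP-1, a transcription factor of FOS and JUN family dimers that is induced within minutes of cell stimulation and also during tissue dissociation.

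The promoter sequences of 5 genes are shown, those of the IL-17 cytokines by which type III cells are defined and of the AP-1 subunits in the description of the cluster. No promoter of *Itgae* is shown. The genes and motifs were chosen after the listings were seen. Each run is the 250 bases before the RefSeq start of the gene, 5′ to 3′ on the strand of the gene, on build GRCm38.p6. The GENCODE annotation starts *Il17f* and *Fosl2* earlier on their strands, so by it these runs lie inside the gene. Capitals mark the AP-1 motif (TGANTCA), where N is any base. They also mark the core of many nuclear receptor sites, AGGTCA, which reads TGACCT from the opposite strand. The TATA box, TATAAA, is in capitals too. The cAMP response element, TGACGTCA, was also searched and is in none of the 5 runs. All were searched on both strands, and no motifs overlap in the runs shown. *Il17a* lies on the plus strand (chr1:20730655-20730904), *Il17f* on the minus strand (chr1:20784271-20784520), *Fos* on the plus strand (chr12:85473640-85473889), *Fosb* on the minus strand (chr7:19310046-19310295) and *Fosl2* on the plus strand (chr5:32136222-32136471).
Il17a: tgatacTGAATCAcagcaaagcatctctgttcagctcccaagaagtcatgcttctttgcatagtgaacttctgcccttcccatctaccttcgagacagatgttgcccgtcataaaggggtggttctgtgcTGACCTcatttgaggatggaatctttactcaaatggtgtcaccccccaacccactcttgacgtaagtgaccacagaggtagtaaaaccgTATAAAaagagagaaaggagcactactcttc
Il17f: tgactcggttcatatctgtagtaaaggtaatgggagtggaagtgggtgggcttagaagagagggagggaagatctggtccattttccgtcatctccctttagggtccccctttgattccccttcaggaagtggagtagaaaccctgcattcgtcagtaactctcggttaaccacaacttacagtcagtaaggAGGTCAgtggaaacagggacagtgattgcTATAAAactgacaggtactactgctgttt
Fos: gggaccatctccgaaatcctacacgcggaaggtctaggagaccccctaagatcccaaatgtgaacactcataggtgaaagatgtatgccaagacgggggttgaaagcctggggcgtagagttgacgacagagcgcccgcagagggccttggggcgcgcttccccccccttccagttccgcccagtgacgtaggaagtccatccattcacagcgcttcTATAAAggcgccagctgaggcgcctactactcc
Fosb: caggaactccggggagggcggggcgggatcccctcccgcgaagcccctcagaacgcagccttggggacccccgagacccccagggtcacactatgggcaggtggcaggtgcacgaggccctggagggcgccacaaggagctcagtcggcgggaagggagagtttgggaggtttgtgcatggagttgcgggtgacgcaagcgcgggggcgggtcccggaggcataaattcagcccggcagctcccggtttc
Fosl2: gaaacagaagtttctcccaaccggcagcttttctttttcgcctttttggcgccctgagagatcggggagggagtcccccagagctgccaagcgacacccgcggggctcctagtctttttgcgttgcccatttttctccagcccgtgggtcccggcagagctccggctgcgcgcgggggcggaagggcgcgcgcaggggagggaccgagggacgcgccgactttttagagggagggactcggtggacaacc

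The *Il17a* run holds the AP-1 letters as TGAATCA, starting 244 bases before the gene, the nuclear receptor core starting 120 bases before it and the TATA box starting 31 bases before it. The *Il17f* run holds the nuclear receptor core, which starts 58 bases before the gene, and the TATA box, which starts 29 bases before it. The *Fos* run holds the TATA box alone, and the *Fosb* and *Fosl2* runs hold none of these letters. Promoters were given for 152 of the 197 genes, and a gene with several starts counted once if any of its promoters held the letters. The AP-1 letters were in 9.87% of these genes, against 7.82% of 27025 genes with a promoter given, and the nuclear receptor core letters were in 15.1% against 15.8%. Among the genes listed for both type III clusters, the AP-1 letters were in 12 of 85 genes, or 14.1%. Among the genes listed for gdT_TypeIII_ITGAE and not for gdT_TypeIII_CD163l1 they were in 3 of 67, or 4.48%. The nuclear receptor core letters were in 17 of 85 genes of the first of these sets (20%) and in 6 of 67 of the second (8.96%). The letters of the cAMP response element were in 3.29% of the 152 genes and 1.77% of all. Among the genes listed for both clusters they were in 1 of 85 (1.18%). Among those listed for gdT_TypeIII_ITGAE and not for gdT_TypeIII_CD163l1 they were in 4 of 67 (5.97%), so these shares rest on few genes. These are matches of letters and not measured binding.

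The cluster was small. The size of each cell type was solved from the shares, since the share of a gene in all cells must be the same from whichever cell type it is computed. The cluster held 1.28% ± 0.0139 (SE of the fit over 1045 genes) of all sorted cells and ranked 15 of 21 by size, just below gdT_TypeIII_CD163l1 at 1.38% ± 0.0140. The SE is that of the fit over genes and holds no spread of cells or mice. The type III clusters together made 2.67% of the cells, and gdT_TypeIII_ITGAE made 5.82% of the cells in the 5 γδ T cell types. Whether its cells came from liver or lung, or from mice given PBS or rIL-33, could not be seen in these values.

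The markers in its name and description are given first. *Itgae* was above 0 in 76.0% of the cluster and in 36.9% of all other cells. It was listed for 3 of the 21 types, and its share was highest here, with 39.6% in gdT_TypeIII_CD163l1 and 35.8% in regulatory T cells (Treg). The share in gdT_TypeIII_CD163l1 was thus near that of all other cells. *Fos* was above 0 in 96.9% of the cluster, *Fosb* in 93.1% and *Fosl2* in 83.7%. The shares in all other cells were 89.8%, 84.1% and 73.4%, so most other cells had these AP-1 genes as well. Among the types that listed each gene, basophils had the highest share of *Fos*, at 97.9%, and of *Fosb*, at 100%, and the MMP_LMPP cluster the highest of *Fosl2*, at 99.2%. The authors named the cluster after *Itgae*, so its high share here is not separate support for the name. Most types had no *Itgae* value to set beside it. The AP-1 genes were listed for the cluster together with several other types.

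The cluster listed 11.7% of all 1679 genes and gdT_TypeIII_CD163l1 listed 11.4%, which is the background for the counts of gene lists. Of the 5 genes of a γδ T cell receptor list that were listed for any type, 3 were listed for the cluster, as were 4 of 14 genes of a list of CD3 and the αβ T cell receptor. *Trdc*, the constant gene of the δ chain, was above 0 in 96.7% of the cluster and 70.6% of all other cells. *Tcrg-C1* and *Tcrg-C2*, constant genes of the γ chain, were above 0 in 87.0% and 75.3%, against 53.4% and 60.2% of all other cells. The γ chain variable gene *Trgv2*, which is in neither list and was named after its values were seen, had 67.9% against 53.6%. *Tcrg-C2* and *Trgv2* had their highest share of any listing type here, whereas *Tcrg-C1* was highest in gdT_TypeIII_CD163l1 at 98.6%. The γ constant genes are near-identical in part, so reads may be split between them and their values are uncertain. *Cd3e* encodes a part of the CD3 complex that carries the T cell receptor to the surface. It was above 0 in 99.2% of the cluster and 83.3% of all other cells, and was listed for 9 types. CD3e was nonetheless in the mixture used to remove cells by surface staining. *Trbc2*, a constant gene of the β chain of αβ T cells, was also listed, with 98.7% in the cluster and 91.3% in all other cells. *Il1rl1*, which encodes the sorted marker ST2, was not listed for the cluster. It was listed for gdT_TypeII at 95.3%, ILC2 at 90.2% and ILC2_2 at 85.8%.

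Of 37 genes of IL-17-producing γδ T cells listed for any type, 31 (83.8%) were listed for gdT_TypeIII_ITGAE and 33 for gdT_TypeIII_CD163l1, 29 of them for both. ILC3, which listed 9.11% of all genes, listed 29 of the 37 (78.4%), and ILC1_ILC3, which listed 13.4%, listed 23 (62.2%). The share of ILC3 was thus near those of the type III clusters. The median difference in share of these 31 genes was 20.9 percentage points, against 13.2 over all 197 genes. The list was drawn from known genes of these cells with earlier results in view, so its count describes the cluster and is not separate support for its name.

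Among the regulators, *Maf*, a factor needed for IL-17 production in γδ T cells, was above 0 in 96.4% of the cluster and 67.4% of all other cells. *Zbtb16*, which encodes PLZF, a factor of innate-like T cells, was above 0 in 74.7%, and *Sox13*, a factor of early γδ T cells, in 61.7%. *Maf* and *Sox13* had higher shares in gdT_TypeIII_CD163l1, with 97.5% and 71.1%, and *Zbtb16* had a lower one, with 66.0%. *Blk*, a Src family kinase used by IL-17-producing γδ T cells, was listed for the type III clusters alone, with 87.0% here and 90.0% in gdT_TypeIII_CD163l1.

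Both IL-17 cytokine genes were listed. *Il17a* was above 0 in 69.6% of the cluster, 59.0% of gdT_TypeIII_CD163l1 and 41.7% of all cells outside the cluster, and no other type listed it. *Il17f* was above 0 in 67.6% of the cluster against 34.7% of all other cells, and was listed for no other of the 21 types, gdT_TypeIII_CD163l1 included. *Tnf*, which encodes an inflammatory cytokine, was the reverse. It was above 0 in 57.1% of the cluster, close to the 54.5% of all other cells, and in 78.5% of gdT_TypeIII_CD163l1. *Cxcl2*, a chemokine that attracts neutrophils, was above 0 in 58.4% of the cluster and 52.1% of all other cells. It was not listed for gdT_TypeIII_CD163l1.

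Of 31 genes of cytokines, chemokines and their receptors listed for any type, 6 were listed for gdT_TypeIII_ITGAE and 7 for gdT_TypeIII_CD163l1, 4 of them for both. Some receptors were listed for both clusters and others for 1. *Ccr6*, the receptor for CCL20 and a marker of IL-17-producing cells, was above 0 in 84.2% of the cluster and 50.6% of all other cells, and was not listed for gdT_TypeIII_CD163l1. ILC1_ILC3 had a share of *Ccr6* close to it, at 82.5%. *Ccr2*, a receptor for monocyte chemoattractants, and *Cxcr6*, a receptor that holds lymphocytes in liver and lung, were listed for both clusters. Their shares were 89.3% and 92.3% here and 96.8% and 99.3% in gdT_TypeIII_CD163l1. *Il18r1*, a chain of the IL-18 receptor, was above 0 in 97.4%, and *Il2ra*, the high-affinity chain of the IL-2 receptor, in 79.3%. *Il1r1*, the receptor for IL-1, was listed for gdT_TypeIII_CD163l1 at 63.2% and not for gdT_TypeIII_ITGAE. *Il23r*, the receptor chain for IL-23, was listed for no type.

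By difference in share, the leading gene was *Mmp25*, which encodes a membrane-anchored metalloproteinase, with 90.1% of the cluster and 35.8% of all other cells. *Actn2*, which encodes an actin-binding α-actinin, followed with 93.1% and 41.6%, and then *Blk* and *Itgae*. *Plxnd1*, a receptor for semaphorins, was above 0 in 67.6%, and *Igf1r*, the receptor for insulin-like growth factor 1, in 87.0%. *Pim2*, a kinase that favours survival, was above 0 in 69.1%, *Syne2*, a protein of the nuclear envelope, in 78.6% and *Rnase4*, a secreted ribonuclease, in 71.4%. The difference was at least 30 percentage points for 19 of the 197 genes and at least 10 for 126. At the low end it was under 5 points for 29 genes. The share was below that of all other cells for 3 of these, *Rasgef1b*, *Cd55* and *Abcb1b*, and equal for *Tiam1*. *Rasgef1b*, a regulator of Ras signalling, was the lowest, with 42.9% against 58.0%.

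**Figure D1:**
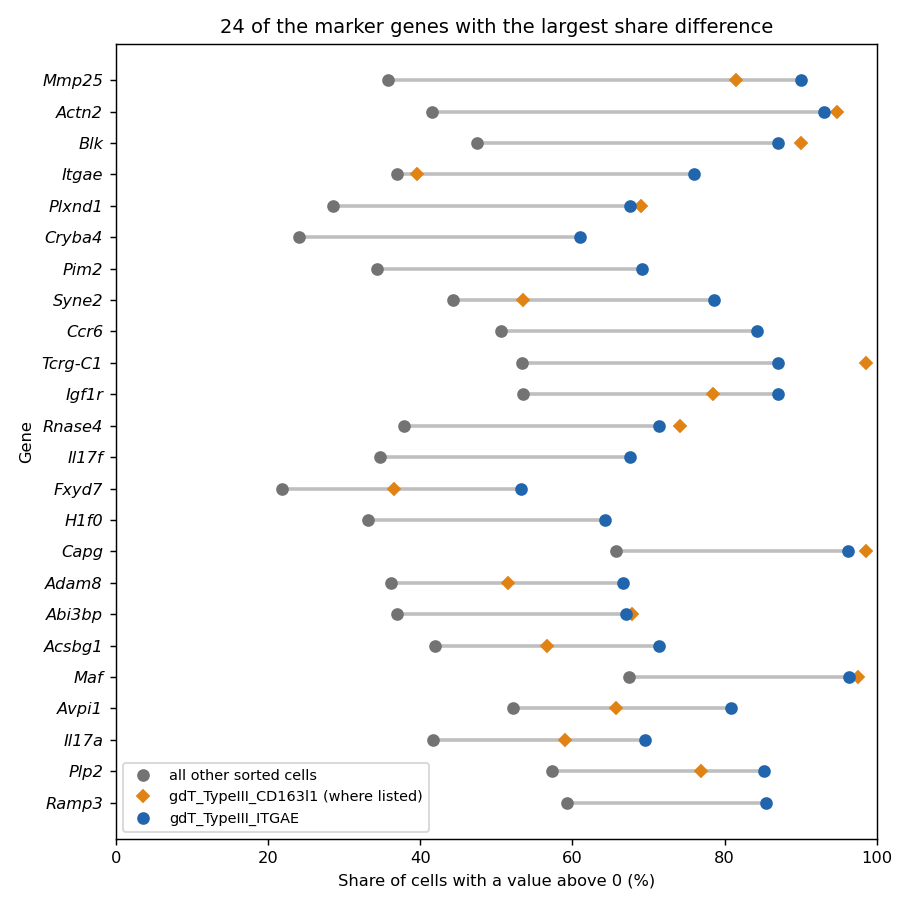
Share of cells with a value above 0 (x axis, percent) for 24 of the 25 listed genes with the largest difference between gdT_TypeIII_ITGAE (blue) and all other sorted cells (grey), with gdT_TypeIII_CD163l1 (orange diamonds) where the gene was listed for it. The blue points lie between 53.3% (*Fxyd7*) and 96.4% (*Maf*), and the diamond of *Itgae* lies beside the grey point.

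A listed gene was listed for a median of 5 of the 21 types, and at most 10. The genes listed here and for no other type were *Il17f*, *Cryba4*, *Smyd2* and *Isy1*. This count of 4 became 14 when each type kept only listings at least 10 percentage points above all other cells, and 9 when it kept only shares above those of all other cells or shares of at least 50%. *Cryba4*, a crystallin gene best known from the lens, was above 0 in 61.0% of the cluster and 24.1% of all other cells. *Smyd2*, a lysine methyltransferase, was above 0 in 54.8% against 36.2%, and *Isy1*, a splicing factor, in 74.5% against 64.2%. A further 7 genes were listed for the type III clusters alone, namely *Blk*, *Il17a*, *Cd163l1*, *Gstp1*, *Fxyd7*, *Acsbg1* and *Aprt*. For 39 of the 197 genes the cluster had the highest share, or shared the highest, among the types that listed the gene.

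**Figure D2:**
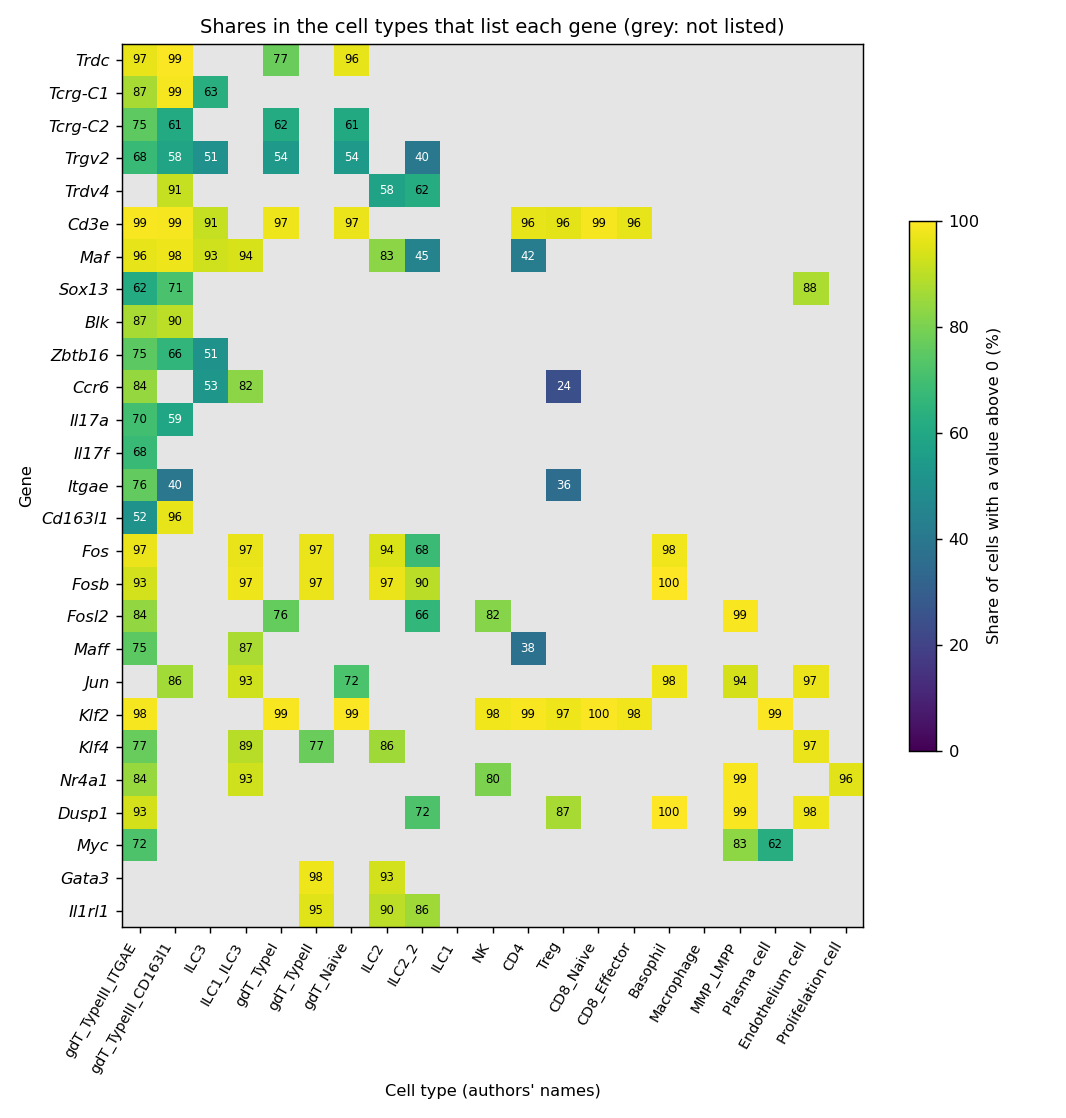
Share of cells with a value above 0 (colour and number, percent) for 27 genes (rows) in the 21 cell types (columns), with grey where the table does not list the gene for the type. The leftmost column is gdT_TypeIII_ITGAE, where *Il17f* stands alone, *Itgae* is the highest of 3 and *Gata3* and *Il1rl1* are grey.

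The lists of the type III clusters were compared next, to see what distinguishes the Itgae-marked cells from the Cd163l1-marked cells. They shared 113 genes (6.73% of the 1679), which made 57.4% of the gdT_TypeIII_ITGAE list and 59.2% of the gdT_TypeIII_CD163l1 list. Each cluster was compared with nearly the same other cells, and each was among the other cells of the second, so the overlap is a description. The share was higher in gdT_TypeIII_ITGAE for 61 shared genes, higher in gdT_TypeIII_CD163l1 for 51 and equal for *S100a10*. The median difference was 0.40 percentage points in favour of gdT_TypeIII_ITGAE, and 60 of the 113 genes differed by under 5 points. With differences of at least 5 points, 32 genes were higher in gdT_TypeIII_ITGAE and 21 in gdT_TypeIII_CD163l1.

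Among the shared genes, *Itgae* differed most in favour of gdT_TypeIII_ITGAE, by 36.4 percentage points. *Syne2* followed with 78.6% against 53.5%, a difference of 25.1 points. *Fxyd7*, a modulator of the sodium pump, was higher by 16.7 points, *Runx2*, a Runt family transcription factor, by 15.5 and *Avpi1* by 15.2. *Adam8*, a surface metalloprotease, was above 0 in 66.6% against 51.6%. *Acsbg1*, an acyl-CoA synthetase, was higher by 14.7 points and *Nfil3*, a factor of innate lymphocyte development, by 14.6. Every one of these genes was listed for both clusters, and the clusters differed in the share of cells that had it.

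*Cd163l1*, a scavenger receptor gene also called SCART1 and found in γδ T cells, differed most the other way. It was above 0 in 96.3% of gdT_TypeIII_CD163l1 and 51.5% of gdT_TypeIII_ITGAE, a difference of 44.8 points. The latter share was close to the 48.9% of all cells outside gdT_TypeIII_ITGAE, as the *Itgae* share of gdT_TypeIII_CD163l1 was close to its own background. *Ly6g5b* was higher in gdT_TypeIII_CD163l1 by 33.0 points, *Ckb*, the brain form of creatine kinase, by 24.5 and *Tnf* by 21.4. *Serpinb6a*, a protease inhibitor, was higher there by 13.0 points, *Bcl2a1d*, a survival gene, by 12.4 and *Tcrg-C1* by 11.6. *Bcl2a1d* has near-identical copies, so its value is uncertain.

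**Figure D3:**
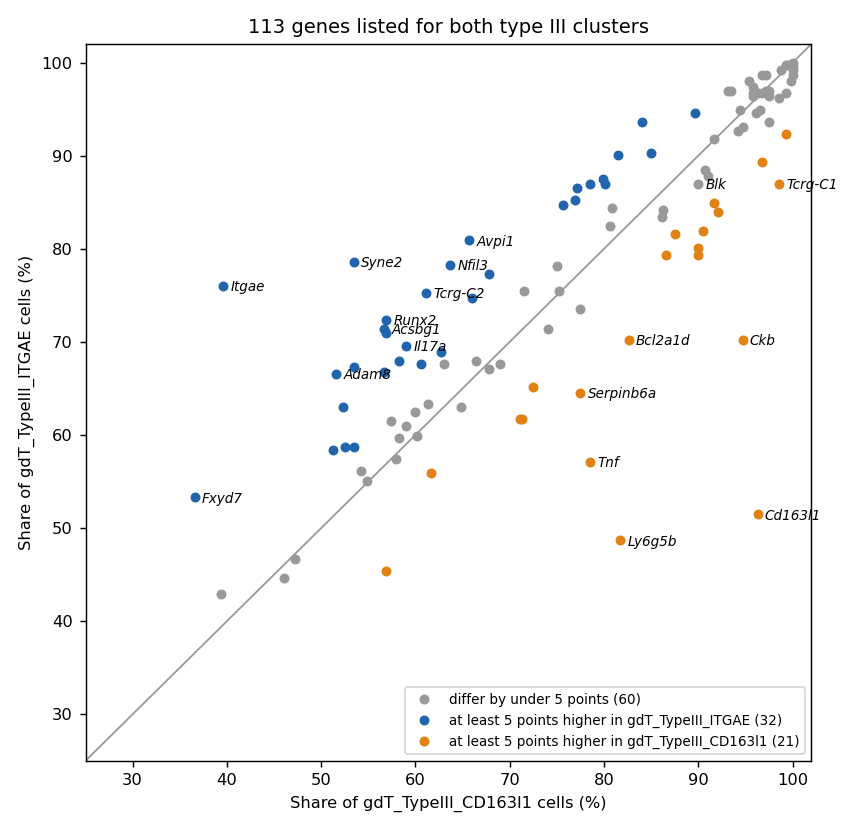
Share of cells with a value above 0 in gdT_TypeIII_CD163l1 (x axis, percent) and gdT_TypeIII_ITGAE (y axis, percent) for the 113 genes listed for both, with a line of equal shares. *Itgae* (39.6% and 76.0%) and *Cd163l1* (96.3% and 51.5%) lie farthest from the line, and 60 genes in grey lie within 5 points of it.

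There were 84 genes listed for gdT_TypeIII_ITGAE and not for gdT_TypeIII_CD163l1. Their differences from all other cells had a median of 10.5 percentage points, against 15.6 for the genes listed for both. The leading ones were *Cryba4*, *Pim2*, *Ccr6*, *Il17f* and *H1f0*, the last a linker histone gene with 64.3% against 33.1%. *Ramp3*, which modifies receptors of the calcitonin family, was above 0 in 85.5% against 59.3%, and was listed for 1 other type. *Myc*, a driver of growth and ribosome production, was above 0 in 71.9% against 45.8%. *Ifngr2*, a chain of the interferon-γ receptor, was above 0 in 82.4%, *Rgcc*, a regulator of the cell cycle, in 85.2% and *Egfr*, the receptor for epidermal growth factor, in 62.5%. *Esm1* was above 0 in 64.3%, *Sdc1*, which encodes syndecan-1, in 55.4%, *Ndrg1* in 51.0%, *Lmo4*, a LIM domain cofactor, in 94.1% and *Pxdc1* in 77.0%. A gene that is not listed for a cluster may be lower there, alike, too rare or untested, so these shares have no counterpart in gdT_TypeIII_CD163l1.

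In the other direction, 78 genes were listed for gdT_TypeIII_CD163l1 and not for gdT_TypeIII_ITGAE. The leading one was *Trdv4*, a variable gene of the δ chain, with 91.4% of gdT_TypeIII_CD163l1 and 45.2% of all other cells. *Pdcd1*, which encodes the inhibitory receptor PD-1, was above 0 in 69.0% against 37.0%. *Bcl2a1a*, which has near-identical copies, was above 0 in 70.6%, *Anxa2*, a membrane-binding annexin, in 89.1%, *Ltb4r1*, a receptor for leukotriene B4, in 88.7% and *Ikzf2*, which encodes Helios, in 91.7%. *Cish*, an inhibitor of cytokine signalling, was above 0 in 84.3%, *Slc16a6* in 69.9%, *Ppp1r14c* in 61.3% and *Cit* in 53.0%. The δ chain variable gene and the checkpoint gene were thus in the list of the Cd163l1-marked cluster, and *Il17f* and *Ccr6* in the list of the Itgae-marked one.

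The AP-1 genes listed for the clusters were few. Of 8 AP-1 family genes listed for any type, gdT_TypeIII_ITGAE listed *Fos*, *Fosb*, *Fosl2* and *Maff*. gdT_TypeIII_CD163l1 listed 1, *Jun*, with 86.1% against 73.6% of all other cells, and *Jun* was not listed for gdT_TypeIII_ITGAE. None of the 8 was listed for both, against 6.73% of all genes, and with so few genes nothing is read from this. *Maff*, a small MAF protein that pairs with bZIP partners, was above 0 in 74.7% of the cluster and 69.1% of all other cells. *Fosl2* had the largest difference of the 4, at 10.3 percentage points, and *Maff* the smallest, at 5.6. With a difference of at least 10 points required, *Fosl2* alone stays, so the count falls from 4 to 1.

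Other immediate early and stress genes followed. Of 37 listed for any type, 17 (45.9%) were listed for gdT_TypeIII_ITGAE and 8 for gdT_TypeIII_CD163l1, 7 of them for both. The count of 17 fell to 6 with a difference of at least 10 percentage points required. *Nr4a1*, an orphan nuclear receptor induced by antigen receptor signals, was above 0 in 84.4% of the cluster and 72.1% of all other cells. *Klf2* and *Klf4*, Krüppel-like factors, were above 0 in 98.5% and 76.8%, against 85.3% and 71.9% of all other cells. The cluster had the lowest share of the 5 types that listed *Klf4*. *Dusp1*, a phosphatase that shuts off MAP kinases, was above 0 in 93.4% against 85.6%. *Zfp36*, which destabilises cytokine mRNAs, had 93.6% here and 84.0% in gdT_TypeIII_CD163l1. *Dusp4* was above 0 in 58.7%, the highest share of the 3 types that listed it. *Hspa1a*, a heat shock gene raised in dissociated tissue, was above 0 in 33.4% of the cluster and 24.5% of all other cells, and shares reads with its near-identical neighbour *Hspa1b*. The part of tissue dissociation and sorting in these listings was not tested.

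Other types also listed many AP-1 and immediate early genes. Basophils, which listed 16.4% of all genes, listed 4 AP-1 genes and 18 other immediate early and stress genes. ILC1_ILC3, which listed 13.4% of all genes, listed 5 AP-1 genes. gdT_TypeIII_ITGAE listed 4 and 17. Of 6 genes of NF-κB and its inhibitors listed for any type, 3 were listed for gdT_TypeIII_ITGAE, 2 for gdT_TypeIII_CD163l1 and 5 for Treg. The inhibitor genes *Nfkbia*, *Tnfaip3* and *Nfkbid* were above 0 in 96.9%, 94.6% and 71.4% of gdT_TypeIII_ITGAE. In gdT_TypeIII_CD163l1, *Nfkbia* had 93.5% and *Tnfaip3* 89.6%. The shares of *Nfkbia* and *Tnfaip3* in all other cells were 93.3% and 92.5%, close to those of the cluster.

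**Figure D4:**
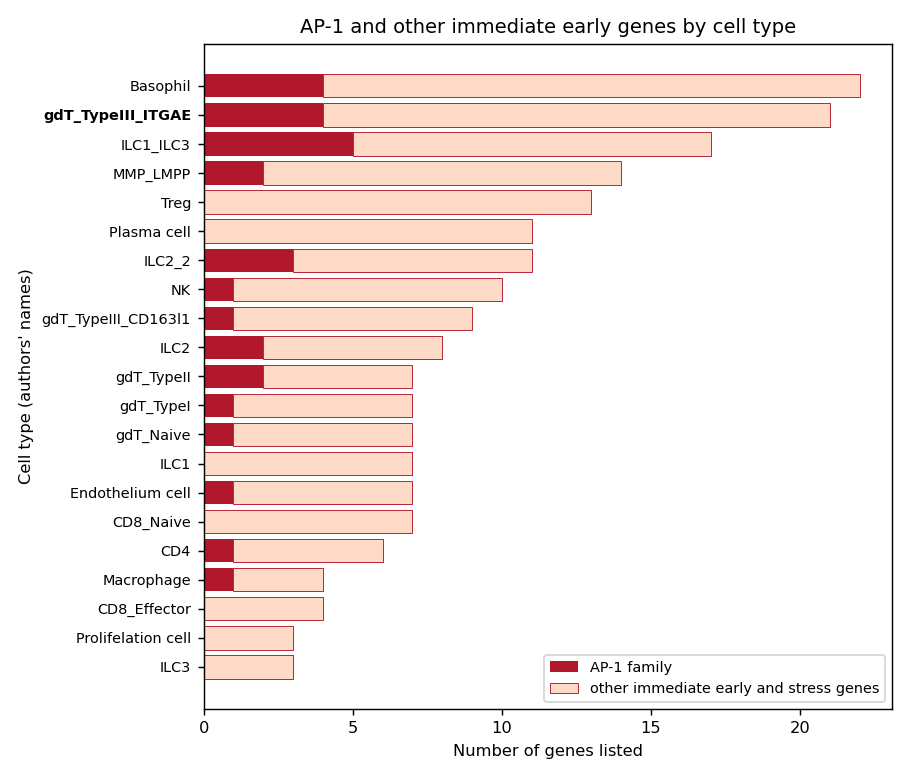
Number of AP-1 family genes (dark red) and other immediate early and stress genes (pale) listed for each of the 21 cell types, ordered by the sum. gdT_TypeIII_ITGAE, in bold, listed 4 and 17, and basophils listed 4 and 18.

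Genes of residency, adhesion and recirculation were mixed. Of 28 such genes listed for any type, 11 (39.3%) were listed for gdT_TypeIII_ITGAE and 8 for gdT_TypeIII_CD163l1. Treg listed 12 of them, and CD4 and ILC1_ILC3 listed 10 each. The count of 11 fell to 6 with a difference of at least 10 percentage points required. *Cd69*, which keeps lymphocytes in tissue by removing S1PR1 from the surface, was above 0 in 94.9% here and 94.4% in gdT_TypeIII_CD163l1. *Gpr183*, an oxysterol receptor that positions lymphocytes, was above 0 in 96.9%, the highest share of 10 types that listed it. *Rgs1*, an inhibitor of chemokine receptor signals, was above 0 in 90.3% and the adhesion receptor gene *Cd44* in 84.9%. *S1pr1*, the receptor for exit into blood and lymph, was listed for gdT_TypeIII_ITGAE with 73.0% against 68.9% of all other cells, as was *Klf2*, which drives its expression. *Ccr10*, a skin-homing receptor, was above 0 in 52.8% against 46.8%, and *Cxcr4*, which binds CXCL12, in 93.1% against 86.3%. *Itgb7*, which encodes the β7 partner of CD103, was listed for no type, and *Cdh1*, its E-cadherin ligand, was not listed for this cluster.

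**Figure D5:**
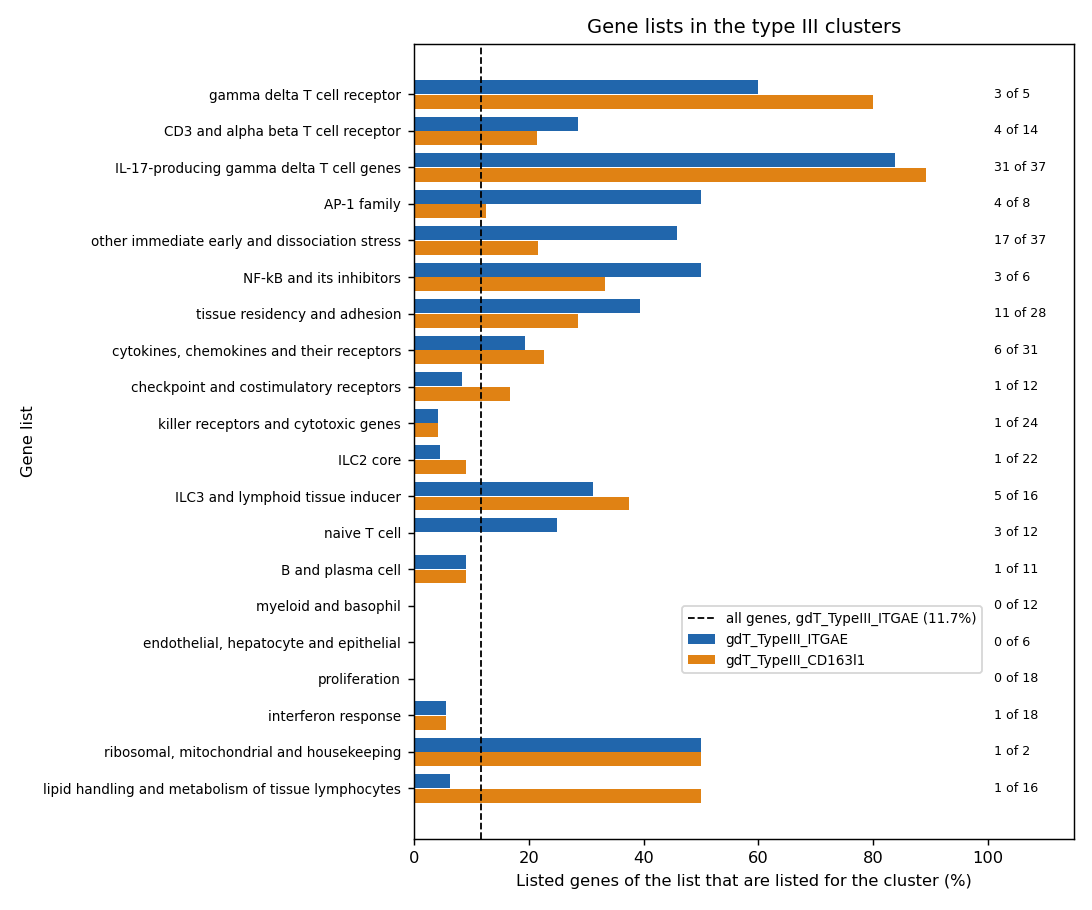
Percentage of the genes of each list that were listed for gdT_TypeIII_ITGAE (blue) or gdT_TypeIII_CD163l1 (orange), among list genes listed for any of the 21 types, with the counts for gdT_TypeIII_ITGAE at the right. ILC3 and other types are not drawn. The dashed line is the 11.7% of all genes listed for gdT_TypeIII_ITGAE, and the IL-17 list lies farthest above it, at 83.8%.

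Markers of other cells that the sort could hold were checked over whole lists. None of 12 myeloid and basophil genes, 6 endothelial, hepatocyte and epithelial genes or 18 proliferation genes listed for any type was listed for gdT_TypeIII_ITGAE. The counts were 1 of 22 for ILC2 genes (*Rora*, shared with IL-17-producing cells), 1 of 24 for killer receptor and cytotoxic genes (*Klrk1*) and 1 of 11 for B and plasma cell genes (*Cd79b*). *Cd79b*, part of the B cell receptor, was above 0 in 44.6% of the cluster and 46.1% of gdT_TypeIII_CD163l1, against 98.8% of plasma cells. Of 16 genes of ILC3s and lymphoid tissue inducer cells, 5 were listed, among them *Ccr6*, *Tmem176a*, *Tmem176b* and *Gpx1*. Of 12 naive T cell genes 3 were listed, *Tcf7*, *Klf2* and *S1pr1*, and none was listed for gdT_TypeIII_CD163l1. *Tcf7*, which encodes TCF1, was above 0 in 93.4% of the cluster and 78.6% of all other cells. The naive markers *Ccr7* and *Lef1* were not listed for the cluster. Of 16 genes of lipid handling and metabolism, 1 was listed for gdT_TypeIII_ITGAE, *Acsbg1*, and 8 for gdT_TypeIII_CD163l1, among them *Fabp5* and *Pkm*. Of 18 interferon response genes 1 was listed, *Gbp6*, at 58.9% against 41.1% of all other cells. Of 12 checkpoint and costimulatory receptors 1 was listed, *Icos*, at 84.7% against 72.6%.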

How the data were processed

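Sorted cells of 4 groups gave 1 droplet-based 3' library each. Per the methods and the labels, reads were aligned with Cell Ranger to mm10, cells with few detected genes were left out and cells were clustered in Seurat. The deposited table of 4422 listings gives, as a fraction to 3 decimals, the authors' share of cells with a value above 0 in the cluster and in all other cells, from the 4 libraries pooled. The deposited columns of log2 fold changes and p-values hold the authors' own comparison of each cluster with all other cells, and were not used. Listings follow the authors' rule, which also chose the members.

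Shares were converted to percent with pandas 2.3.3 in Python 3.11.15. Cluster sizes came from least squares in numpy 2.4.6 over genes listed for at least 2 types, with no constraint on their sum. On simulated shares of 1045 genes the largest error was 0.0134 percentage points. Those shares were drawn evenly over a wide range, independently for each gene and type, and not with the spread of the real shares. The error thus checks the solving step and is not the accuracy for these data. Positions of 196 of 197 genes matched GENCODE vM21. Alternatives kept listings with a difference of at least 10 percentage points, with a share above that of other cells, or with a share of at least 50%, and solved sizes in other ways.

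Genes named, other than those said to be named after their values were seen, were those of the description (*Itgae*, *Fos*, *Fosb*, *Fosl2*), of the gene lists, and those with the largest or lowest share differences: the leading 15 of the cluster, the 10 lowest, the genes of no other type, the 8 shared genes that differed most each way, and the leading 15 and 10 genes of either type III cluster alone. The genes listed for both type III clusters and for no other type were also named, outside the planned rule. The members and lists were chosen with earlier results of these data known. The planned overlap with other cell types and with ILC2 subclusters is not given, because those comparisons share their other cells. Doublets were not called here, since the tables hold no cells. Some genes that this rule names are not reported here.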

Additional observations from a re-analysis of the deposited data

How the results depend on the processing

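No paired analysis was possible because the deposited shares pool the 4 libraries. With listings kept at a difference of at least 10 percentage points from all other cells, 126 genes remained for gdT_TypeIII_ITGAE, 107 for gdT_TypeIII_CD163l1, 64 for both and 14 for gdT_TypeIII_ITGAE alone among the 21 types. The last count rises because listings of other types are dropped. The AP-1 list then kept 1 gene (*Fosl2*), the immediate early and stress list 6, the NF-κB list 1, the residency list 6 and the housekeeping list 0. With a share above that of all other cells, or of at least 50% in the cluster, 9 genes were listed for gdT_TypeIII_ITGAE alone, and the B and plasma cell list kept 0 under the latter. Differences of at least 5 points left 32 shared genes higher in gdT_TypeIII_ITGAE and 21 higher in gdT_TypeIII_CD163l1, the last setting chosen after seeing the data. Solved sizes lay between 1.28% and 1.29% and between 1.38% and 1.40% under all 3 alternatives. The tables used here hold no depth, cell numbers or replicates, so no precision is given for a share.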

Other observations

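Values of 6 further listed genes, which belong to no gene list and were named after their values were seen, are given as a description. *Irs2*, an adaptor of insulin and insulin-like growth factor receptors, was above 0 in 87.2% of gdT_TypeIII_ITGAE and 68.6% of all other cells, and the cluster had the higher share of the 2 types that listed it. *Tgfbr3*, a co-receptor for TGF-β, was above 0 in 59.4% against 53.0%, and *Smad7*, an inhibitor of TGF-β signalling, in 91.8% against 88.7%. *Errfi1*, an inhibitor of the EGF receptor, was above 0 in 70.9% against 68.7%. *Socs3* and *Socs1*, inhibitors of cytokine receptor signalling, were above 0 in 82.1% and 80.9%, against 69.0% and 77.2% of all other cells.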
